A study of Glycine max with 24 samples.

Results

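Glutathione S-transferases and peroxidases were represented by 75 of the 37694 soybean probesets tested on the Soy GeneChip. A probeset was a member if its description in the study's additional files held the name glutathione S-transferase or peroxidase, or if the gene symbol of the probe table began with GST or APX or was LOC100306119, LOC548029 or LOC100817540. Of the 75 members, 50 read glutathione S-transferases (GSTs), 10 ascorbate peroxidases, 3 glutathione peroxidases and 12 class III or other peroxidases. A symbol alone brought in 54 of them and a description the other 21. The descriptions come from lists of probesets called changed on these same arrays, so the members brought in by a description are not independent evidence of change. The 59 members with a single symbol stand for 33 genes, 5 carry several symbols, and 11 carry none and are named by their probeset.

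Developing seed was compared between LoPro and HiPro, near-isogenic soybean lines from a backcross population. LoPro (labelled LoProt, ld04-15146) keeps the allele of the Glycine max parent at the linkage group I seed protein QTL, and HiPro (labelled HiProt, ld04-15154) carries the allele of Glycine soja PI468916 there. Each line is represented by a single line of plants grown in a growth chamber. Whole seed was taken at stage 1 (25 to 50 mg), stage 2 (above 50 to 100 mg), stage 3 (above 100 to 200 mg) and stage 4 (above 200 to 300 mg). Every stage of each line has 3 arrays, 24 altogether. A replicate is seed pooled from 3 plants, and the same plants gave all 4 stages, so the arrays come from 6 pools.

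GSTs join the tripeptide glutathione, or homoglutathione in legumes, to reactive or foreign molecules, and plants carry large families of them, among which the tau and phi classes are specific to plants. Ascorbate peroxidases reduce hydrogen peroxide to water with ascorbate, which the ascorbate-glutathione cycle restores. Glutathione peroxidases of plants reduce lipid and other peroxides and mostly draw on thioredoxin. Class III peroxidases are secreted haem enzymes that cross-link or loosen cell wall components, and the soybean seed coat is a well known source of one of them.

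A change is the difference of mean log2 signal, given with its standard error (SE) from the fit of limma over 3 arrays per group. A probeset was called where its p, adjusted over all probesets by the Benjamini-Hochberg method, was under 0.05 and the change was at least 1.5-fold. Counts at an unadjusted p under 0.05 are given without the share of all probesets at that level and are no evidence of change. Signals of different probesets have different scales, so a rank by mean signal orders probesets and not transcripts. A name ending in _s_at, _x_at or _a_at marks a probeset whose probes can match several transcripts, which in families of near copies such as these leaves the gene uncertain. Of the members, 19 lay in the lowest 30% of probesets by mean signal, where signals are least precise, and 13 in the highest 10%.

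Transcripts of storage proteins, which mark the cotyledon, gave a summed signal of 9 probesets between 48175 and 103150 in LoPro and between 44996 and 53342 in HiPro at stage 1. That sum reached 153004 to 170137 in LoPro and 161540 to 202636 in HiPro at stage 4. The 4 seed coat markers other than the peroxidase gene Ep (ANR1, DFR1, DFR2 and ANS2, enzymes of flavonoid pigment synthesis) fell over the same stages, from a sum of 16756 to 26113 in LoPro and 16591 to 22142 in HiPro to 1093 to 1645 and 1157 to 1651. All 4 were called lower at stage 4 in both lines. The 3 markers of dividing cells fell from sums of 18186 to 21105 in LoPro and 15293 to 20360.1 in HiPro to 8439.6 to 9867 and 7741 to 11037. All 3 are histone probesets brought in by a description, so they were listed because they changed on these arrays. Their fall is therefore not independent evidence of fewer dividing cells. RNA of the whole seed was measured, so fewer cells of a type and less RNA per cell cannot be told apart, and the part of these shifts in the changes below was not tested. The mean 3′ minus 5′ log2 signal of 5 soybean control transcripts moved as well, from 3.68 at stage 1 to 2.30 at stage 4 in LoPro and from 3.89 to 2.15 in HiPro, while for actin alone it was 4.77 and 4.95 in LoPro and 4.91 and 4.91 in HiPro. Without the sucrose-binding protein, itself a seed protein, the mean of the other 4 moved from 3.03 to 2.52 in LoPro and from 3.16 to 2.36 in HiPro. Its part in the changes was not tested.

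From stage 1 to stage 4, 16 members rose and 20 fell in LoPro, against a background of 21.7% of all probesets called (11.3% higher, 10.4% lower). In HiPro 10 members rose and 19 fell, against 24.2% of all probesets (10.7% higher, 13.5% lower), and with each array centred on its median, which moved the median change of all probesets in HiPro from -0.01 to 0.12, 16 rose and 17 fell. Both lines shared 7 increases and 16 decreases (7.51% and 8.7% of all probesets), and no member was called in opposite directions. Of the 54 members found by symbol alone, 8 rose and 10 fell in LoPro and 4 rose and 9 fell in HiPro, which is 33.3% and 24.1% of them. These 54 are not fully independent of these arrays either. GST3, called higher in both lines, was in the study's lists under another description. The 2 LOC100817540 probesets among them entered through a symbol chosen with earlier results known. Among the 21 described members, 18 were called in LoPro and 16 in HiPro. The median change of the 75 was 0.14 in LoPro and -0.12 in HiPro, beside 0.08 and -0.01 over all probesets. The arrays of stages 1 and 4 did not overlap for 49 members in LoPro and 44 in HiPro, where 41.2% and 43.7% of all probesets showed no overlap. No comparison with stage 1 called 32 of the 75. For this count and for the lack of opposite calls the share of all probesets is not given, so neither is set against a background.

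**Figure D1:**
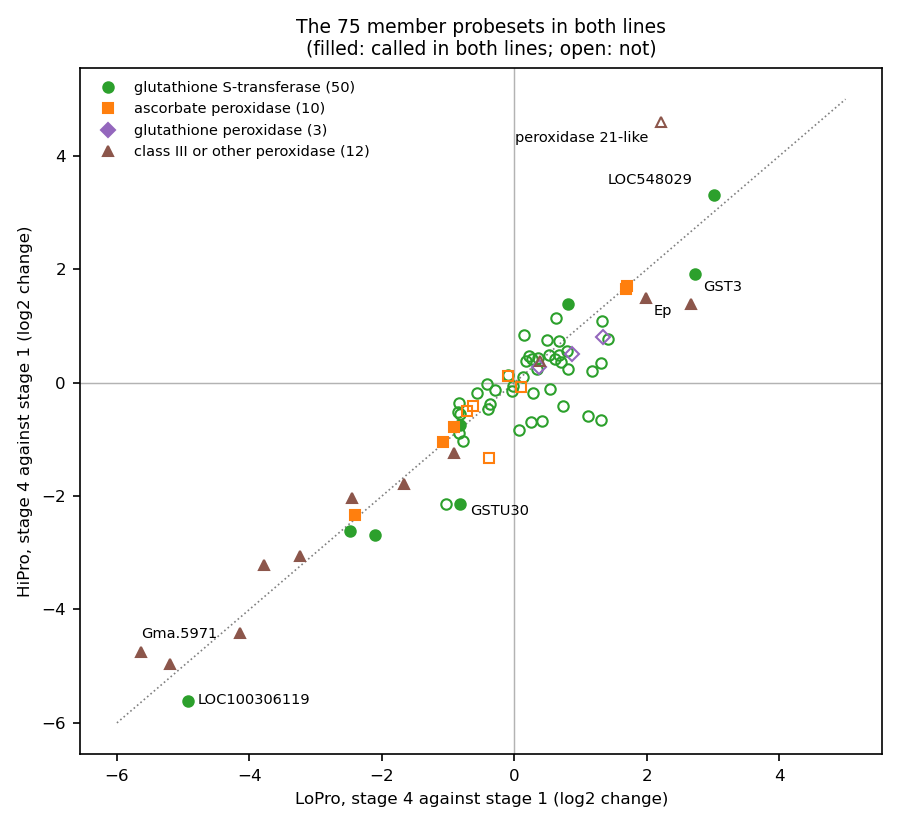
Change from stage 1 to stage 4 of each of the 75 member probesets, in LoPro on the horizontal axis and HiPro on the vertical axis (log2 of the signal, 3 arrays per group), with shape and colour for the kind of enzyme and filled symbols for members called in both lines. The points lie along the dotted line of equal change, with LOC100306119 near -5 and LOC548029 near 3 on both axes, and the peroxidase 21 probeset, called in HiPro alone, stands above the line.

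Across the 54 members found by symbol alone the changes of the lines had a correlation of 0.815, beside 0.762 over all 37694 probesets. With the 21 described members, listed because they changed on these arrays, it was 0.93. These are descriptions across probesets, some of which read the same gene, and the 54 include the GST3 and LOC100817540 probesets mentioned above.

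The tau class was the largest, with 31 probesets. At stage 4, 8 of them rose and 5 fell in LoPro, and 4 rose and 5 fell in HiPro. A pair of its genes, LOC548029 and LOC100306119, moved far in opposite directions in both lines. LOC548029 (Gma.8516.1.S1_at), described as GST 11 of soybean and also named GSTU59, rose from early seed fill on. In LoPro its signals were 67.1, 54.4 and 43.5 at stage 1, 136, 196 and 79.2 at stage 2, 275, 299 and 282 at stage 3 and 460.1, 448 and 406 at stage 4. The HiPro arrays read 33.9, 46.4 and 34.6 at stage 1, 119.8, 120.3 and 103 at stage 2, 407, 296 and 246 at stage 3 and 397, 375 and 355 at stage 4. Stages 1 and 2 did not overlap in either line, and nor did stages 2 and 3. The rise from stage 1 to stage 4 was 3.01 ± 0.25 in LoPro (8.08-fold, adjusted p = 4.8e-08) and 3.31 ± 0.25 in HiPro (9.90-fold, adjusted p = 1.4e-08). It was also the single member called by stage 2, where 0.432% of all probesets were called in LoPro and 1.02% in HiPro, with changes of 1.25 ± 0.25 (adjusted p = 0.027) and 1.59 ± 0.25 (adjusted p = 0.0027). That early call depended on the pools: when each of the 6 pools was left out in turn it was lost in 5 fits for LoPro and 3 for HiPro. With the plant pool as a block, 3 members were called at stage 2 in LoPro, adding both GSTU41 probesets of the Gma.1917 series, and 2 in HiPro, adding GSTU28.

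LOC100306119 (Gma.10032.1.S1_at), described as GST 7 and also named GSTU5 or GmGSTU2, was the tau transcript that fell furthest. LoPro signals were 897, 881 and 1913 at stage 1 and 412, 377 and 1627 at stage 2, then 8.82, 42.7 and 54.8 at stage 3 and 43.97, 42.6 and 28.6 at stage 4. In HiPro they were 753, 928 and 1558 at stage 1, 517, 521 and 1146 at stage 2, 18.2, 78.6 and 132 at stage 3 and 23.5, 8.90 and 43.9 at stage 4. Every array of stages 3 and 4 lay far below every array of stages 1 and 2, and in both lines replicate 3 was the highest at stages 1 and 2. The change to stage 4 was -4.93 ± 0.74 on the log2 scale in LoPro (30.5-fold lower, adjusted p = 4.1e-05), and in HiPro -5.62 ± 0.74 (49.1-fold lower, adjusted p = 7.4e-06). Most of it came between stages 2 and 3, with called steps of -4.53 (LoPro) and -3.56 (HiPro).

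**Figure D2:**
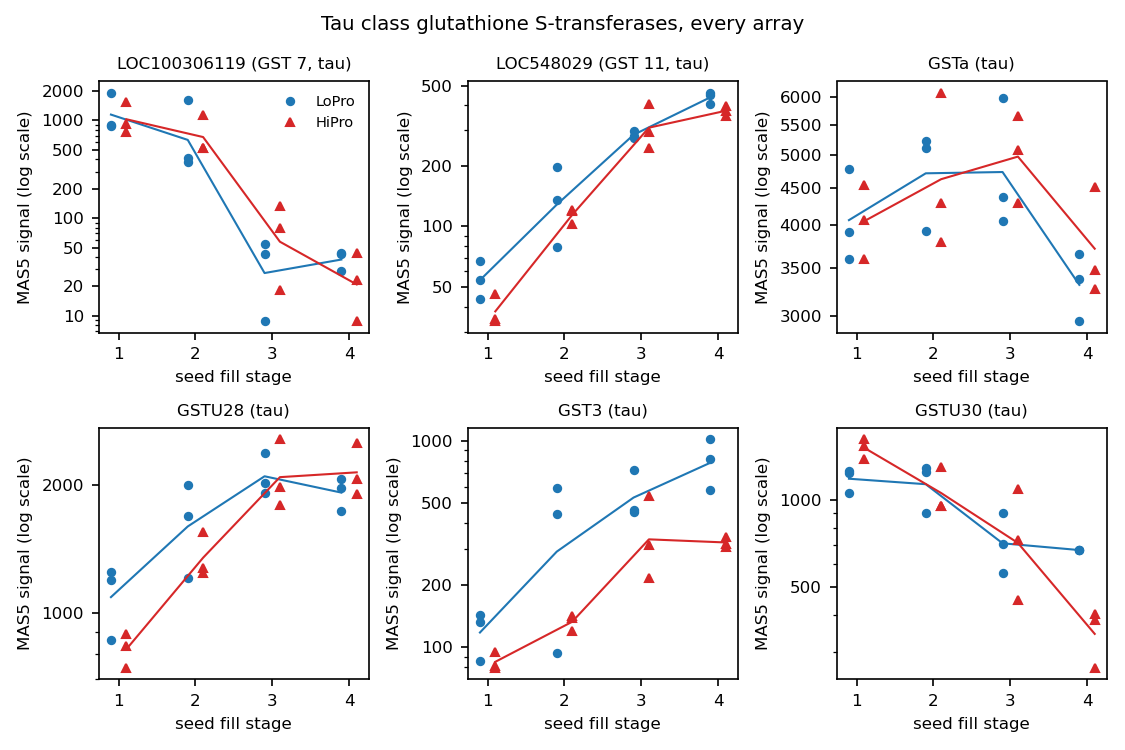
MAS5 signal of 6 tau class GST probesets on every array, by seed fill stage, on log axes of different range, with LoPro as circles, HiPro as triangles and lines through the geometric mean of 3 arrays. LOC100306119 falls between stages 2 and 3 while LOC548029 climbs, GSTa stays between 2955 and 6079 on every array, and the HiPro arrays of GST3 lie below those of LoPro at stage 4.

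GST3 (Gma.1560.1.S1_s_at, also named GSTU53 and listed with the description of a lactoylglutathione lyase) rose in both lines. Its LoPro arrays read 134, 144 and 85.9 at stage 1, 591, 444 and 94.1 at stage 2, 719.8, 463 and 452 at stage 3 and 1018, 822 and 577 at stage 4. Those of HiPro read 95.5, 79.8 and 81.2 at stage 1, 120.1, 142 and 139 at stage 2, 544, 314 and 218 at stage 3 and 343, 307 and 318 at stage 4. At stage 2 the third LoPro replicate was still at its stage 1 level while the other two had risen. The increase to stage 4 was 2.73 ± 0.45 in LoPro (adjusted p = 0.00011) and 1.92 ± 0.45 in HiPro (adjusted p = 0.0025). GSTU28 (GmaAffx.88997.1.S1_s_at) rose from 1198, 1248 and 864 at stage 1 through 1690.4, 1996 and 1206 at stage 2 and 2020.4, 2374 and 1917 at stage 3 to 2063, 1968 and 1737 at stage 4 in LoPro. In HiPro it went from 892, 743 and 834 at stage 1 through 1241, 1276 and 1546 at stage 2 and 2558, 1972 and 1798 at stage 3 to 2505, 2059 and 1900.4 at stage 4. These are changes of 0.82 ± 0.18 and 1.38 ± 0.18 (adjusted p = 0.0015 and 5.4e-06), with no overlap of stages 1 and 4 in either line.

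GSTU30 (Gma.5039.1.S1_s_at) moved the other way. In LoPro its signals were 1240.1, 1059.9 and 1262 at stage 1, 1288, 1249.5 and 904 at stage 2, 903, 561 and 704 at stage 3 and 670.4, 670.4 and 675 at stage 4. In HiPro they were 1617, 1389 and 1540.5 at stage 1, 957, 953 and 1295 at stage 2, 1092, 452 and 727 at stage 3 and 403, 264 and 387 at stage 4, so that the HiPro arrays ended below those of LoPro. The change to stage 4 was -0.82 ± 0.24 in LoPro (adjusted p = 0.014), where the call was lost without LoPro replicate 1 or 3, and -2.13 ± 0.24 in HiPro (adjusted p = 1.1e-06). GSTU28 and GSTU30 are near neighbours on chromosome 7 in the RefSeq annotation, with 3 annotated genes between them, and GSTU27 lies directly beside GSTU28. GSTU27 was in the lowest 30% by mean signal and called in neither line, at 1.11 ± 0.66 in LoPro and -0.58 ± 0.66 in HiPro. LOC548029 lies directly beside GSTU58 on chromosome 18, and GSTU58, also in the lowest 30%, was called in neither line (1.41 ± 0.70 and 0.78 ± 0.70). With the floor at the 10th percentile of signals it was called higher in both, at 1.02 and 0.60.

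GSTa (Gma.339.1.S1_s_at, GSTU48), which had the highest signal of the GST probesets, was called at no stage. It read 3598, 4774 and 3915 at stage 1, 5222, 5104 and 3932 at stage 2, 5982, 4376 and 4053 at stage 3 and 3375, 3649.8 and 2955 at stage 4 in LoPro. HiPro gave 4073, 4542 and 3601 at stage 1, 4293, 3798 and 6079 at stage 2, 5646, 4290.2 and 5070.3 at stage 3 and 3474, 3274 and 4509 at stage 4. Stages 1 and 4 overlapped in both lines, and the changes were -0.30 ± 0.19 and -0.13 ± 0.19. The gene sits on chromosome 15 beside GSTU47, with GST3 a few genes away, where 5 annotated genes separate it from GSTa.

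Probesets of GSTU47 and GSTU13 disagreed with each other. For GSTU47, Gma.13775.1.A1_at fell by 2.47 ± 0.50 in LoPro (adjusted p = 0.00075) and changed by -2.62 ± 0.50 in HiPro (adjusted p = 0.00036). Its signals were low throughout, with 18.4, 26.1 and 14.6 at stage 1, 25.1, 30.9 and 15.8 at stage 2, 10.3, 14.4 and 15.7 at stage 3 and 3.73, 1.92 and 5.67 at stage 4 of LoPro, and 22.5, 25.8 and 36.2 at stage 1, 10.7, 11.8 and 15.1 at stage 2, 13.7, 8.90 and 16.8 at stage 3 and 2.77, 3.92 and 8.32 at stage 4 in HiPro. With signals floored at 14.5, the 10th percentile, the LoPro change was -0.39 and was not called, and that of HiPro -0.92. Stages 1 and 4 did not overlap in either line, but every stage 4 array lay under that floor. Of the other 3 GSTU47 probesets, GmaAffx.16168.1.A1_at fell in LoPro (-0.83 ± 0.25, adjusted p = 0.018), GmaAffx.93206.1.S1_x_at rose there (0.71 ± 0.26, adjusted p = 0.045), and neither was called in HiPro. The call of GmaAffx.16168.1.A1_at was lost without LoPro replicate 2 or 3, and that of GmaAffx.93206.1.S1_x_at without any 1 of the LoPro pools, with the floor or after median centring. GSTU13 is read by 4 probesets, of which Gma.16720.1.S1_at alone was called. It went from 80.7, 31.9 and 108 at stage 1 to 18.4, 18.04 and 84.7 at stage 2, 24.98, 18.5 and 12.7 at stage 3 and 18.5, 13.2 and 14.3 at stage 4 in LoPro. HiPro arrays fell from 110.3, 87.9 and 118 at stage 1 to 48.4, 15.2 and 39.03 at stage 2, 18.00, 13.5 and 17.2 at stage 3 and 8.33, 16.2 and 31.3 at stage 4. The changes were -2.11 ± 0.59 (adjusted p = 0.011, lost without LoPro replicate 1 or 3) and -2.69 ± 0.59 (adjusted p = 0.0015).

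GSTU41, described as a GST inducible by the synthetic auxin 2,4-D, is named here after its values were seen, and 2 of its 3 probesets were in the highest 10% by mean signal. All 3 of its probesets rose in LoPro by stage 4, by 1.30 ± 0.26, 0.80 ± 0.15 and 0.67 ± 0.22, with adjusted p = 0.00073, 0.0005 and 0.027, the last of which was lost without any 1 of the LoPro pools. In HiPro the values were 0.34, 0.55 and 0.48, and none was called, although median centring called Gma.1917.1.S1_s_at and GmaAffx.89168.1.A1_at there, the former also without HiPro replicate 3 and the latter also with quantile normalization. For Gma.1917.1.S1_at the LoPro arrays read 1468, 819 and 687 at stage 1 and 2698, 2378 and 1942 at stage 4, and the HiPro arrays 1599, 1315 and 1358 at stage 1 and 1881, 1472 and 2092 at stage 4. The difference between the lines in this change was -0.96 ± 0.37 (adjusted p = 0.98) and was not called.

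GSTU1 and GSTU17 were among the members with the smallest changes. GSTU1 (Gma.15093.1.S1_at) read 744, 997 and 732 at stage 1, 1148, 867 and 779.6 at stage 2, 844, 774 and 741 at stage 3 and 773, 832 and 794 at stage 4 in LoPro and 945, 744 and 878 at stage 1, 1060.3, 1069 and 983 at stage 2, 1227, 812 and 1239.6 at stage 3 and 688, 764 and 880.1 at stage 4 in HiPro. GSTU17 (Gma.6213.1.S1_s_at) read 186, 281 and 359.7 at stage 1, 167, 271 and 299 at stage 2, 214, 277 and 281 at stage 3 and 224, 253 and 318 at stage 4 in LoPro, and 219, 417 and 357 at stage 1, 225, 229 and 309.9 at stage 2, 223, 262 and 316 at stage 3 and 256, 333 and 346 at stage 4 in HiPro. For both, the arrays of stages 1 and 4 overlapped in each line. Their stage 4 changes lay between -0.14 and -0.03 for GSTU1 and between -0.05 and -0.02 for GSTU17, with SEs of 0.16 and 0.27.

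Of 6 phi probesets, 1 rose and 1 fell in LoPro and 1 fell in HiPro, none of them the same probeset in both lines, and the phi changes ran from -1.03 to 0.81 and from -2.13 to 0.84. The call in HiPro was that of GSTF5 probeset GmaAffx.36625.1.S1_at, with 39.5, 31.8 and 25.8 at stage 1 and 3.20, 3.75 and 32.00 at stage 4, where a single array stayed at the stage 1 level. With signals floored at 14.5 its change was -0.75 and was not called, and the call was also lost without HiPro replicate 1 or 2. Both phi calls in LoPro were lost without LoPro replicate 1. The phi probeset that rose there, GmaAffx.92226.1.S1_at (0.81, and 0.25 in HiPro), also reads GSTF5. A further GSTF5 probeset, Gma.7226.4.S1_a_at, was not called (0.27 and 0.42), so no single direction can be given for this gene. Of 5 lambda probesets, 1 rose (a call lost without any 1 of the LoPro pools) and 1 fell in LoPro and none was called in HiPro, where 1 had an unadjusted p under 0.05. GSTL3, the only symbol of 3 of them, had these 3 probesets in the highest 10% by mean signal. Their values ran from -0.85 to -0.42 in LoPro and from -0.52 to -0.03 in HiPro. The lambda probeset that rose in LoPro, GmaAffx.38033.1.S1_at (0.62), carries the symbols of both GSTL2 and GSTL3. Both theta probesets (GSTT1) stayed between 0.10 and 0.38, uncalled. Both zeta probesets (GSTZ3) had changes between 0.49 and 0.74, with 1 called, in HiPro. Of 4 GST probesets with no class in the tables, 1 fell in LoPro and 2 in HiPro. The probeset shared by the lines, Gma.13691.1.A1_at, is described from a pea GST and changed by -0.83 ± 0.14 and -0.74 ± 0.14.

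The ascorbate peroxidases split by probeset. Of 10 probesets, 2 rose and 4 fell in LoPro by stage 4, and 2 rose and 3 fell in HiPro, with medians of -0.50 and -0.46. GmaAffx.93393.1.S1_s_at, which had the highest mean signal of the members, carries the symbols of both APX1 and APX2, cytosolic ascorbate peroxidases, and fell. LoPro signals were 8995, 9298 and 9921 at stage 1, 6927, 7514 and 9429 at stage 2, 6865, 5754 and 8727 at stage 3 and 3834, 4611 and 6954 at stage 4, and those of HiPro 8021, 7798 and 9788 at stage 1, 8509, 9099.9 and 9187 at stage 2, 5482, 6473 and 7052 at stage 3 and 3617, 5819.7 and 5741 at stage 4. The changes were -0.92 ± 0.20 (adjusted p = 0.0019) and -0.78 ± 0.20 (adjusted p = 0.0058, lost without HiPro replicate 1). Gma.13160.1.S1_at, assigned to APX1 alone, changed by -0.72 ± 0.18 in LoPro (adjusted p = 0.0049, lost without LoPro replicate 1) and by -0.50 ± 0.18 in HiPro, which was under 1.5-fold and was called after quantile normalization.

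Both probesets of the GmaAffx.86592.2 series, also assigned to APX1 and described by a cytosolic ascorbate peroxidase of peanut, rose instead. GmaAffx.86592.2.S1_at read 293, 379 and 262 at stage 1, 457, 437 and 299.5 at stage 2, 634, 896 and 909 at stage 3 and 1174, 949 and 856 at stage 4 in LoPro. Its HiPro arrays read 397, 271 and 344 at stage 1, 439, 418 and 418 at stage 2, 733, 831 and 745 at stage 3 and 1289.7, 979 and 916 at stage 4. Its partner GmaAffx.86592.2.A1_at went from 32.9, 30.02 and 29.5 at stage 1 through 64.4, 72.2 and 33.9 at stage 2 and 62.5, 75.8 and 70.1 at stage 3 to 103, 97.2 and 99.5 at stage 4 in LoPro and from 30.7, 33.4 and 24.6 at stage 1 through 47.2, 43.5 and 50.1 at stage 2 and 69.1, 69.6 and 54.2 at stage 3 to 105, 85.6 and 98.2 at stage 4 in HiPro. No stage 1 array overlapped a stage 4 array for either of them. The rises were 1.68 ± 0.19 and 1.70 ± 0.25 in LoPro and 1.65 ± 0.19 and 1.71 ± 0.25 in HiPro, with adjusted p of 1.7e-06, 3.4e-05, 1.6e-06 and 2.6e-05. The remaining APX1 probesets were called nowhere. GmaAffx.92646.1.S1_s_at, among the members with the smallest change, read 1514, 1348 and 1648 at stage 1, 1827, 1789.8 and 1791 at stage 2, 1294, 1425 and 1327 at stage 3 and 1684, 1571 and 1557 at stage 4 in LoPro and 1937, 1539 and 1768 at stage 1, 1559.5, 1643 and 2213 at stage 2, 1657, 1746 and 1461 at stage 3 and 1443, 1638 and 1937 at stage 4 in HiPro, and Gma.4192.1.S1_at changed by -0.09 and 0.12. The 5 APX1 probesets therefore held opposite calls in LoPro, and no single direction can be given for the gene from these arrays.

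**Figure D3:**
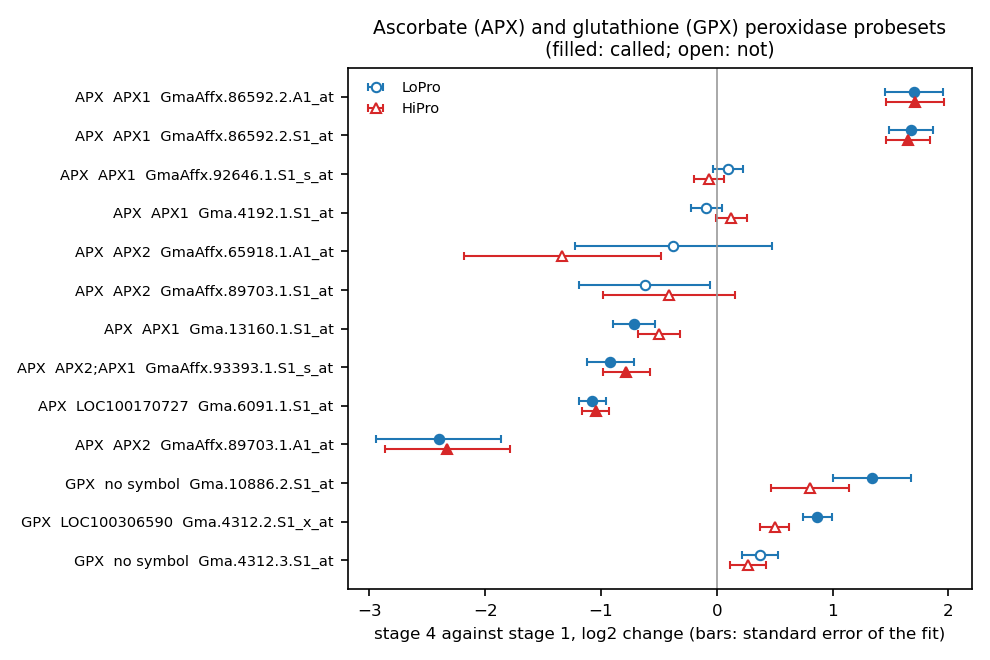
Change from stage 1 to stage 4 (log2 of the signal) of the 10 ascorbate peroxidase and 3 glutathione peroxidase probesets in LoPro (circles) and HiPro (triangles), with bars for the SE of the fit (3 arrays per group) and filled symbols where called. The 5 APX1 probesets run from -0.72 to 1.70 in LoPro, and the APX2 probeset GmaAffx.89703.1.A1_at lies below -2 in both lines.

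The 3 probesets of APX2 all had values below 0 in both lines, and 1 of them was called. GmaAffx.89703.1.A1_at read 647, 347 and 1103 at stage 1, 307, 352 and 863 at stage 2, 194, 158 and 207 at stage 3 and 60.3, 111 and 252 at stage 4 of LoPro. For HiPro the signals were 746, 632 and 1043 at stage 1, 366, 317 and 691 at stage 2, 135, 228 and 339.9 at stage 3 and 71.95, 214 and 253 at stage 4. It fell by 2.40 ± 0.54 in LoPro (adjusted p = 0.0021, lost without LoPro replicate 1) and by 2.33 ± 0.54 in HiPro (adjusted p = 0.0023). Its partner GmaAffx.89703.1.S1_at was not called, at -0.62 ± 0.57 and -0.41 ± 0.57, nor was GmaAffx.65918.1.A1_at, at -0.38 ± 0.85 and -1.33 ± 0.85. A peroxisomal ascorbate peroxidase (LOC100170727, Gma.6091.1.S1_at), which removes hydrogen peroxide at the peroxisome membrane, fell, with 2056, 2091 and 2136 at stage 1, 2074, 1671 and 1934 at stage 2, 1324, 1318 and 1175 at stage 3 and 884, 972 and 1144 at stage 4 in LoPro. In HiPro it went through 2093, 1901 and 1974 at stage 1, 1917, 1875 and 1826 at stage 2, 1213, 1240.3 and 1656 at stage 3 and 938, 898 and 1059 at stage 4. The replicates were close together, and the changes of -1.07 ± 0.12 and -1.05 ± 0.12 were called with adjusted p = 1.2e-06 and 1.2e-06.

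The 3 glutathione peroxidase probesets rose or held. All 3 were brought in by a description, so they were listed because they changed on these arrays. They had values above 0 in both lines, and 2 were called in LoPro, where 11.3% of all probesets were called higher. None was called in HiPro, where 2 had an unadjusted p under 0.05. LOC100306590 (Gma.4312.2.S1_x_at), which had the highest mean signal of the 3, read 669, 554 and 667 at stage 1, 714, 841 and 701 at stage 2, 728, 987 and 981 at stage 3 and 1215, 1069 and 1161 at stage 4 in LoPro and 616, 706 and 574 at stage 1, 667, 616 and 741 at stage 2, 904, 903 and 814 at stage 3 and 899.8, 876 and 892 at stage 4 in HiPro. Stages 1 and 4 did not overlap in either line. Its rise in LoPro was 0.87 ± 0.12 (adjusted p = 2e-05), and the HiPro value of 0.50 ± 0.12 (adjusted p = 0.0036) was under 1.5-fold and was called after median centring or without HiPro replicate 2. The other two gave 1.34 ± 0.34 and 0.37 ± 0.15 in LoPro, and 0.80 ± 0.34 and 0.27 ± 0.15 in HiPro, and the first of them, Gma.10886.2.S1_at, was called in HiPro after quantile normalization or median centring.

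Most of the class III and other peroxidases fell. Of 12 probesets, 8 fell and 2 rose in LoPro by stage 4, and 8 fell and 3 rose in HiPro, with medians of -2.06 and -1.92. All but 2 were brought in by a description, so they were listed because they changed on these arrays. Gma.5971.1.S1_at, described as a haem peroxidase, went from 214, 305 and 492 at stage 1 to 95.9, 154 and 259 at stage 2, 15.1, 43.1 and 30.6 at stage 3 and 3.11, 2.35 and 35.5 at stage 4 in LoPro. In HiPro the fall ran from 309, 574 and 367 at stage 1 to 147, 148 and 233 at stage 2, 19.4, 45.4 and 74.4 at stage 3 and 9.12, 18.02 and 20.4 at stage 4. The changes were -5.64 ± 0.73 in LoPro (adjusted p = 8e-06) and -4.75 ± 0.73 in HiPro (adjusted p = 4.5e-05), but the lowest LoPro arrays lie under the floor of 14.5, with which the LoPro change was -4.02.

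Gma.5524.1.S1_at, a peroxidase precursor, was held to stage 2 and then fell. LoPro arrays read 475, 496 and 586 at stage 1, 876, 435 and 1093 at stage 2, 149.7, 20.3 and 26.7 at stage 3 and 12.4, 10.2 and 21.97 at stage 4, against 413, 375 and 598 at stage 1, 632, 577 and 837 at stage 2, 169.7, 55.03 and 359 at stage 3 and 13.9, 19.1 and 11.5 at stage 4 in HiPro. The group mean was highest at stage 2 in both lines. The change to stage 4 was -5.20 ± 0.61 in LoPro (adjusted p = 2.3e-06) and -4.96 ± 0.61 in HiPro (adjusted p = 3.2e-06). The largest step was called between stages 2 and 3 in LoPro (-4.11) and between stages 3 and 4 in HiPro (-3.36), and the difference between the lines in the change from stage 1 to stage 3, 1.98 ± 0.86, was not called (adjusted p = 1).

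A haem peroxidase read by 3 probesets, all matched to the gene model Glyma14g05850 in the study's annotation, fell in both lines. GmaAffx.21924.1.S1_at, which had the highest mean signal of the 12, read 1318, 1307 and 1462 at stage 1, 909, 772 and 976 at stage 2, 632, 432 and 391 at stage 3 and 193, 263 and 300.5 at stage 4 in LoPro. HiPro arrays read 1614, 917 and 979 at stage 1, 960.2, 841 and 1159 at stage 2, 470.1, 402 and 567 at stage 3 and 364, 288 and 198 at stage 4. Its changes were -2.45 ± 0.24 and -2.04 ± 0.24, with no overlap between stages 1 and 4. The other two, Gma.17805.1.A1_s_at and Gma.6166.1.S1_at, named here after their values were seen, had LoPro changes of -3.77 ± 0.27 and -3.23 ± 0.20 and HiPro changes of -3.22 ± 0.27 and -3.06 ± 0.20. Gma.6166.1.S1_at had the smallest adjusted p of the members at stage 4, 8.5e-09 in LoPro and 4.1e-09 in HiPro.

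**Figure D4:**
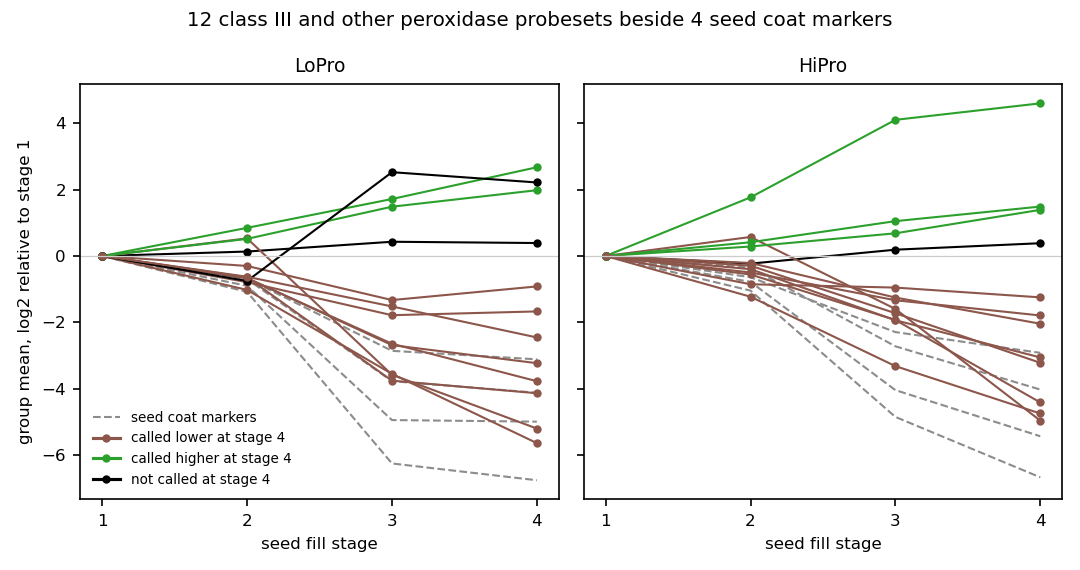
Group means of the 12 class III and other peroxidase probesets over the 4 seed fill stages, as log2 relative to stage 1 of the same line (3 arrays per point), with the 4 seed coat markers ANR1, DFR1, DFR2 and ANS2 as dashed lines. In each line 8 peroxidase probesets end below stage 1 and fall beside the markers, while Ep and Gma.6477.1.S1_at rise.

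LOC100817540, a peroxidase described from white clover, was read by 3 probesets that did not move alike. Gma.10936.1.S1_s_at fell from 269.9, 245 and 282 at stage 1 to 154, 158 and 202 at stage 2, 19.8, 30.9 and 12.4 at stage 3 and 13.5, 12.1 and 21.01 at stage 4 in LoPro and from 316, 199 and 348 at stage 1 to 189.7, 149 and 244 at stage 2, 59.7, 51.6 and 129 at stage 3 and 3.04, 19.9 and 37.5 at stage 4 in HiPro, changes of -4.14 ± 0.59 and -4.41 ± 0.59. Stages 1 and 4 did not overlap in either line. At stage 4 of HiPro the array of replicate 1 lay far under the floor of 14.5, and the HiPro change was -3.66 with the floor and -3.27 without that replicate, both still called. Gma.10936.1.S1_at fell less, with changes of -1.67 ± 0.30 and -1.79 ± 0.30, from 315, 254 and 246 at stage 1 through 148, 145 and 179 at stage 2 and 80.4, 58.7 and 102 at stage 3 to 74.00, 82.8 and 99.6 at stage 4 in LoPro and from 348, 185 and 390.0 at stage 1 through 193, 197 and 235 at stage 2 and 82.4, 146 and 130.2 at stage 3 to 89.6, 126 and 53.7 at stage 4 in HiPro. Its HiPro change was -2.41 without HiPro replicate 2 and -1.26 without replicate 3, called in both fits. Gma.12155.1.S1_a_at was not called. It read 106, 88.5 and 108 at stage 1, 118, 97.8 and 116 at stage 2, 133, 122 and 153 at stage 3 and 133, 122 and 139.8 at stage 4 in LoPro and 122, 116 and 119 at stage 1, 75.7, 128 and 107 at stage 2, 128, 155 and 125 at stage 3 and 135, 181 and 153 at stage 4 in HiPro, which gave 0.39 ± 0.19 and 0.39 ± 0.19.

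Ep, the seed coat peroxidase of soybean, rose while the other seed coat markers fell. Its signals (Gma.876.1.S1_at) were 334, 356 and 312 at stage 1, 509, 497 and 428 at stage 2, 822, 1223 and 809.5 at stage 3 and 1650.4, 1370.3 and 1011 at stage 4 of LoPro. The HiPro series was 267, 319 and 345 at stage 1, 452, 439 and 350.2 at stage 2, 749, 604 and 577 at stage 3 and 1108, 723 and 812 at stage 4. No array of stage 4 reached down to those of stages 1 and 2. The rise was 1.98 ± 0.19 (3.95-fold, adjusted p = 2.5e-07) in LoPro and 1.49 ± 0.19 (2.81-fold, adjusted p = 5.4e-06) in HiPro. ANR1, an enzyme of proanthocyanidin synthesis in the seed coat, changed by -6.76 and -6.67 over the same stages. A further soybean peroxidase, Gma.6477.1.S1_at, rose from 29.6, 45.03 and 47.6 at stage 1 through 71.1, 91.6 and 56.9 at stage 2 and 125, 141 and 128 at stage 3 to 363, 262 and 173 at stage 4 in LoPro and from 39.8, 47.7 and 101 at stage 1 through 55.8, 54.1 and 115 at stage 2 and 90.95, 116 and 75.3 at stage 3 to 152, 128 and 177 at stage 4 in HiPro. The changes were 2.67 ± 0.35 (adjusted p = 8.8e-06) and 1.39 ± 0.35 (adjusted p = 0.0043, lost without HiPro replicate 1).

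**Figure D5:**
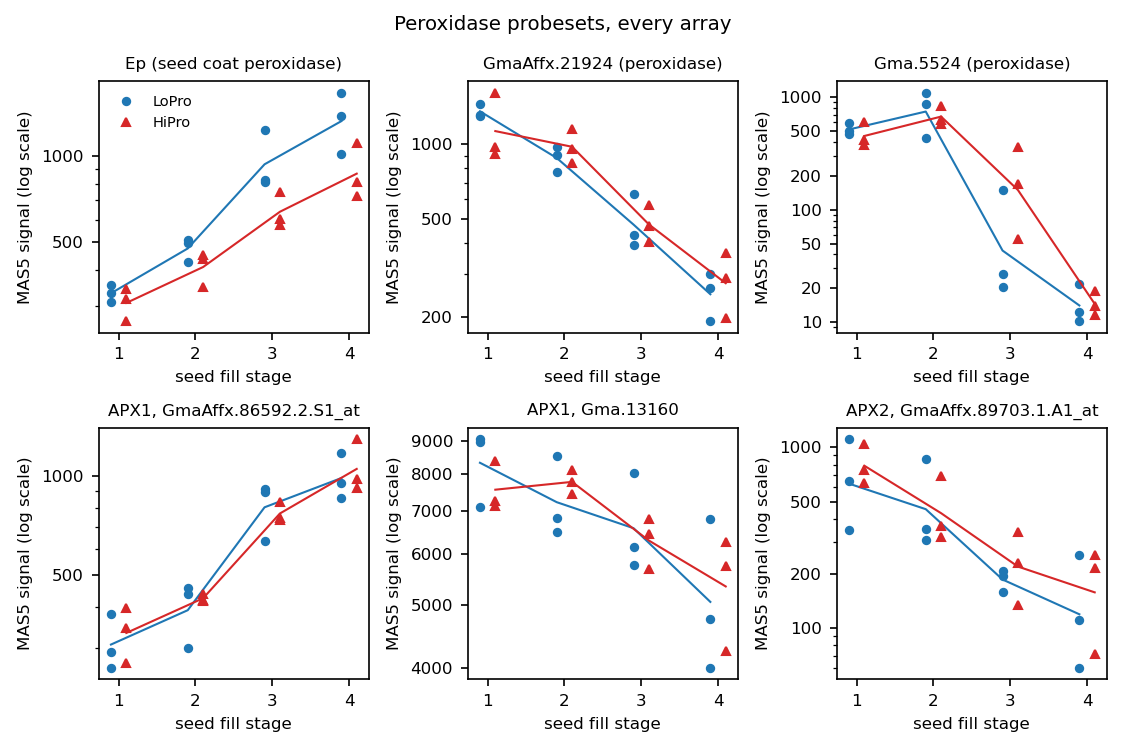
MAS5 signal of 3 class III peroxidase and 3 ascorbate peroxidase probesets on every array, by seed fill stage, on log axes of different range, with LoPro as circles, HiPro as triangles and lines through the geometric mean of 3 arrays. Ep and the APX1 probeset GmaAffx.86592.2.S1_at rise in both lines, the other 4 end lower, and Gma.5524.1.S1_at is at its highest at stage 2.

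A probeset described as peroxidase 21 of Arabidopsis (GmaAffx.16271.1.S1_at), named after its values were seen, spread widely between replicates. It read 38.4, 57.1 and 29.7 at stage 1, 26.97, 137 and 3.69 at stage 2, 127, 265 and 369 at stage 3 and 66.7, 271 and 361 at stage 4 in LoPro and 6.54, 11.8 and 20.9 at stage 1, 37.4, 57.4 and 29.5 at stage 2, 302, 219 and 123 at stage 3 and 226, 305 and 332 at stage 4 in HiPro. The arrays of stages 1 and 4 did not overlap in either line. The HiPro rise of 4.60 ± 0.85 was called (adjusted p = 0.0003) and the LoPro value of 2.22 ± 0.85 was not (adjusted p = 0.057). Over the alternatives the LoPro value had adjusted p from 0.022 to 0.17 and was called with the floor or in the fit blocked on plant pool (adjusted p = 0.04). The lines were not shown to differ, with a difference of 2.38 ± 1.21 and adjusted p = 1. Gma.6564.1.S1_at, the eighth of the falling peroxidases, changed by -0.92 ± 0.33 in LoPro (adjusted p = 0.043), a call lost without any 1 of the 6 pools or with the floor, and -1.25 ± 0.33 in HiPro (adjusted p = 0.0065, lost without HiPro replicate 3).

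By stage 3, 13 members had risen and 13 had fallen in LoPro, where 14.8% of all probesets were called (7.49% higher, 7.32% lower). In HiPro 11 had risen and 11 had fallen, beside 13.9% of all probesets (5.96% higher, 7.92% lower). Both lines shared 9 of these increases and 11 decreases (3.93% and 5.25% of all probesets). Without LoPro replicate 3 the LoPro count was 17 in place of 26, and without HiPro replicate 1 that of HiPro was 12 in place of 22. The step from stage 2 to stage 3 called 14 members in LoPro, 4 higher and 10 lower (9.07% of all probesets, 4.68% higher and 4.39% lower), of which 10 were class III or other peroxidases, 8 of them lower. In HiPro it called 2 higher and 4 lower (2.77% of all probesets, 1.13% higher and 1.63% lower). LOC100306119, LOC548029, the 3 haem peroxidase probesets and GmaAffx.86592.2.S1_at of APX1 were called at this step in both lines. From stage 3 to stage 4 no member was called in LoPro, where 18 had an unadjusted p under 0.05 (0.17% of all probesets called), and 3 peroxidase probesets fell in HiPro (0.512% of all probesets called, 0.499% lower), namely Gma.5524.1.S1_at, Gma.17805.1.A1_s_at and Gma.6166.1.S1_at.

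Between the lines no member was called over the mean of the 4 stages, where 5 had an unadjusted p under 0.05 and 0.0982% of all probesets were called by limma. GST3 had the smallest p, being lower in HiPro by 0.89 ± 0.23 on the log2 scale (adjusted p = 0.18), with group means of 118, 291, 532 and 785 in LoPro and 85.2, 133, 334 and 322 in HiPro. All 3 HiPro arrays of stage 4 lay below all 3 of LoPro. With the replicate number as a block GST3 was called (adjusted p = 0.03), but the labels do not say that equal numbers mark plants grown together. Without LoPro replicate 3 the difference was -1.23 and was called, and both probesets of the phi GST gene GST24 were then called too, at -0.87 and -0.86. Ep was next, lower in HiPro by 0.37 ± 0.10 (adjusted p = 0.19), with stage 4 means of 1317 and 866. At single stages no member was called, with 6, 1, 7 and 8 at an unadjusted p under 0.05 at stages 1 to 4 and 0.0159%, 0.0133%, 0.0345% and 0.061% of all probesets called. These shares are of called probesets, so they are no background for the counts at an unadjusted p.

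The change from stage 1 to stage 4 was called as different between the lines for no member and, by limma, for 0% of all probesets, while 7 members had an unadjusted p under 0.05. The smallest p belonged to GSTU30, which fell further in HiPro by 1.31 ± 0.34 (adjusted p = 0.97). GSTU42 (Gma.2593.1.S1_s_at) followed, with 170.3, 159 and 138 at stage 1, 168, 227 and 127 at stage 2, 243, 151 and 222 at stage 3 and 260.1, 155 and 159 at stage 4 in LoPro and 194, 201 and 186 at stage 1, 117, 142 and 154 at stage 2, 223, 166 and 176 at stage 3 and 121, 131 and 108 at stage 4 in HiPro. At stage 4 all 3 HiPro arrays lay below those of LoPro. Its stage 4 change was 0.26 ± 0.23 in LoPro and -0.69 ± 0.23 in HiPro (adjusted p = 0.025, a call lost without any 1 of the HiPro pools and under quantile normalization or median centring), a difference of -0.95 ± 0.32 (adjusted p = 0.97). GST3, GSTU30 and GSTU42 were picked for a small p between the lines. The separation of their stage 4 arrays is set against no share of all probesets and adds no evidence of a difference.

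Other antioxidant enzymes were read by 24 probesets, of which 4 rose and 8 fell by stage 4 in LoPro and 5 rose and 9 fell in HiPro, with medians of -0.36 and -0.30. Of all probesets, 11.3% were called higher and 10.4% lower in LoPro, and 10.7% and 13.5% in HiPro. The study's lists brought in 10 of them by description, and of the 14 found by symbol none rose and 5 fell in each line, where 9 and 9 had an unadjusted p under 0.05. SOD1, a superoxide dismutase, which turns superoxide into hydrogen peroxide, rose by 0.78 in LoPro and 1.06 in HiPro, while SODB2 fell by 1.15 and 1.70. The 4 called catalase probesets fell by 0.65 to 1.15 in LoPro and 0.66 to 0.98 in HiPro. All carry the symbol of CAT4, most of them together with that of CAT5. The probeset of CAT5 alone was not called, with changes of 1.30 ± 0.57 in LoPro and 0.61 ± 0.57 in HiPro, so no fall can be assigned to CAT5. A further CAT4 probeset was not called (-0.45 in LoPro, -0.48 in HiPro), and nor was CAT1, with changes of 0.30 and 0.24. Of the enzymes that restore ascorbate and glutathione, both monodehydroascorbate reductase probesets fell, by 1.12 and 1.20 in LoPro and 1.66 and 1.69 in HiPro. DHAR3 was called higher in HiPro alone (changes of 0.57 in LoPro, 0.78 in HiPro), and DHAR4 was not called (-0.30 and 0.12). Both glutathione reductase (GR) probesets stayed between -0.07 and 0.46, uncalled. Both thioredoxin probesets of LOC100499871 rose, by 0.94 and 1.03 in LoPro and 1.15 and 1.18 in HiPro. FTRC, the catalytic chain of ferredoxin-thioredoxin reductase, was called lower in both lines (-1.08 in LoPro, -0.98 in HiPro).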

How the data were processed

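RNA of whole seed from 24 samples, 3 per line and stage, was hybridised to the Soybean Genome Array. The deposited values are linear signal intensities of the arrays, which the authors computed with MAS5, per the labels, and scaled to a common trimmed mean (500.14 to 500.17 on the deposited arrays). The study itself worked mainly from RMA values, not analysed here. Detection calls were not used here. MAS5 signals of low probesets vary widely, and the number of arrays limits the precision.

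After leaving out 69 control probesets, log2 signals of 37694 probesets were fitted with limma 3.58.1 in R 4.3.3, with a mean for each of the 8 groups, 16 residual degrees of freedom and moderated variances with an intensity trend. P-values were adjusted by the Benjamini-Hochberg method over all probesets. Named members were those of 3 listed symbols, the largest changes called in both lines and the highest mean signal within each role, the smallest p between the lines and the smallest changes called nowhere. The members and gene lists were chosen with earlier results of these data known. Symbols came from the platform annotation, and gene order and aliases from the RefSeq annotation of Glycine_max_v4.0. A wider family list by RefSeq gene description was not made here.

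By the methods, same-numbered samples of a line are the same plants. Deviations from the group means correlated at 0.0961 on average within such pools, 0.0797 between lines of the same number and -0.044 otherwise. Alternatives were quantile normalization, median centring, a floor at the 10th percentile, leaving out the 30% of probesets with the lowest signal, the methods' t-test, the plant pool or the replicate number as a block, and leaving out each pool.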

Additional observations from a re-analysis of the deposited data

How the results depend on the processing

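At stage 2, LoPro had 1 member called and HiPro 1. Quantile normalization and the low-signal filter gave 2 in LoPro and 2 in HiPro, median centring and the floor gave 2 in HiPro, the plant pool as a replicate block gave 3 in LoPro and 2 in HiPro, and the methods' t-test gave 0 in each. At stage 3 that test called 4 members in LoPro and 4 in HiPro, against 26 and 22 with limma, and at stage 4 it called 21 and 19, against 36 and 29. It uses the compared arrays alone. Leaving out 1 pool at a time gave 0 to 3 (LoPro) and 0 to 2 (HiPro) at stage 2, 17 to 25 and 12 to 25 at stage 3, and 25 to 35 and 26 to 31 at stage 4. For the line difference over the mean of stages it gave 0 to 3, and for the difference in the stage 4 change 0 to 0. With the replicate number as a block, 1 member differed between the lines (GST3, adjusted p = 0.03). The plant pool as a block changed no other count by over 1.5 times.

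The 26 probesets chosen by the rule were mainly those with the largest called changes or the smallest changes. Their stability therefore does not stand for that of the other members, some of whose calls were lost more often. For the 26, 614 values of the stage 4 change were recomputed in the 2 lines. Of these 587 kept their direction and side of the threshold, 25 were no longer called (12 of them under the methods' t-test and 10 with a pool left out), 2 became called and 0 reversed. The cause was not tested. The t-test was not run for the difference in the stage 4 change, and the low-signal filter left 42 of 52 values. Signals under about 14.5 have no reliable order, which limits the size of the falls of Gma.5971.1.S1_at, Gma.13775.1.A1_at, Gma.10936.1.S1_s_at and GmaAffx.36625.1.S1_at, among others.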
